A study of Mus musculus with 6 samples.

Results

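The iron of a macrophage is handled by a small set of proteins, and 10 of their genes were followed here in macrophages given medium from 2 kinds of alveolar macrophage. The genes are the ferritin subunits Fth1 and Ftl1, the ferritin receptor Ncoa4, the importers and transporters Tfrc, Slc11a1 and Slc11a2, the exporter Slc40a1, the iron sensor Ireb2, and the metallothioneins Mt1 and Mt2. They were taken by name from the table. All 10 were among the 21959 genes of the deposited table, and all 10 passed the filter on low counts, which kept 10177 genes for testing.

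The sequenced cells were wild-type (WT) mouse bone marrow-derived macrophages, primary cells differentiated from bone marrow in culture. The first group (P1, P2 and P3) spent 24 h in fresh medium mixed 1 to 1 with medium that HTR2C-positive alveolar macrophages had conditioned for 48 h. The second group (N1, N2 and N3) had the same mixture made with medium from HTR2C-negative alveolar macrophages. HTR2C, a serotonin receptor, therefore sorts the cells that made the medium and not the cells that were sequenced. The mice that gave the alveolar macrophages were 8 to 12 weeks old, and cells kept without conditioned medium were not analysed here. The labels do not say whether the 3 samples of a group were separate cultures, animals or lots of medium. Each p-value sets the difference between the groups against the spread among these samples only, and that spread may be technical.

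Iron enters most cells bound to transferrin, which the transferrin receptor carries into endosomes, while macrophages also recover iron from the heme of engulfed red cells. Iron that is not used is stored inside ferritin shells, released again when NCOA4 takes ferritin to the lysosome, or exported through ferroportin, the product of Slc40a1. When iron is scarce, the iron regulatory proteins bind hairpins called iron-responsive elements, which blocks translation from a 5' untranslated region (UTR) and protects the messenger RNA from a 3' UTR. Metallothioneins are small cysteine-rich proteins that bind zinc and copper, and their genes are switched on by the zinc sensor MTF1 through metal response elements in the promoter.

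The hairpins are printed because the same loop occurs in storage, uptake and export genes, and because the RNA counts reported here do not read translation. The search asked for an unpaired C, 5 paired bases with G-T pairs allowed, the 6-base loop CAGTGN (N being any base but G), and the 5 bases that pair back, on the sense strand of annotated UTRs. Each line below runs 5' to 3' in DNA letters over 30 bases, with the loop in capitals.
Fth1: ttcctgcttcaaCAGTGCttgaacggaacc
Ftl1: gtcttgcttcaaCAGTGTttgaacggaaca
Slc40a1: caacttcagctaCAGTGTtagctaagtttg
Tfrc 1: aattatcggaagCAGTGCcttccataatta
Tfrc 2: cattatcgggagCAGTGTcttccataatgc
Tfrc 3: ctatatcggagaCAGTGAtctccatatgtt
Tfrc 4: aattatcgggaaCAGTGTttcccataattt
Slc11a2: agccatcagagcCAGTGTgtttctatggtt

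The sites of Fth1 (chr19:9982732-9982761, plus strand), Ftl1 (chr7:45459778-45459807, minus strand) and Slc40a1 (chr1:45925464-45925493, minus strand) lie in 5' UTRs. The 4 sites of Tfrc, all on the plus strand, lie in its 3' UTR at chr16:32631219-32631248, chr16:32631598-32631627, chr16:32631663-32631692 and chr16:32631710-32631739. The Slc11a2 site (chr15:100395152-100395181, minus strand), also in a 3' UTR, pairs only when 1 unpaired base is allowed on the 3' side of the stem. These coordinates and sequences are those of the GENCODE M21 annotation on the GRCm38 build, whereas gene positions given further on are the deposited table's own on GRCm39. The Fth1 and Ftl1 hairpins share the base at 26 of 30 positions, while the Fth1 and Slc40a1 hairpins share 13 of 30. Among the Tfrc hairpins, those numbered 1 and 2 share 25 of 30 bases and those numbered 2 and 3 share 18 of 30. A match to the strict pattern was found in the 5' UTR of 23 of 20565 genes (0.112%) and in the 3' UTR of 100 of 20945 genes (0.477%), or 260 genes (1.24%) for 3' UTRs with 1 unpaired base allowed. No match to these letters was found in the UTRs of Ncoa4, Slc11a1, Ireb2, Mt1 or Mt2.

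The metallothionein promoters are printed because Mt1 and Mt2 stood far apart in level, as given further on. The search used the core TGCACNC, or its variant TGCGCNC, on both strands, and capitals mark the matches, which do not overlap. The windows are RefSeq's on GRCm38.p6, from 250 bases before to 50 after the start, at chr8:94178839-94179138 for Mt1 and chr8:94172368-94172667 for Mt2, both on the plus strand.
Mt1: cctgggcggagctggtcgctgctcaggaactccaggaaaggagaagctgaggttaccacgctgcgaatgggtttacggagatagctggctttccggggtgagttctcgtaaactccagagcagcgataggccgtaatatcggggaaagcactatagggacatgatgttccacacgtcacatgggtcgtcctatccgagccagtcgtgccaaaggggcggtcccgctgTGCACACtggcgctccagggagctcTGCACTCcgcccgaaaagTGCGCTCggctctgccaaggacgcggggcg
Mt2: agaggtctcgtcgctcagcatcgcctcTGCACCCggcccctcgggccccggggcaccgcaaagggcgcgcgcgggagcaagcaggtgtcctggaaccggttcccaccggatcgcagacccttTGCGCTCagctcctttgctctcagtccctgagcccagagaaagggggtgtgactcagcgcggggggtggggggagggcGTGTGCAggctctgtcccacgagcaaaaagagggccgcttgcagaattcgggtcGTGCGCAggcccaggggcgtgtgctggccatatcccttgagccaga

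Mt1 held 3 matches and Mt2 held 4 in these windows. Bases outside the windows were not searched, so the numbers do not compare the whole promoters of the genes. At least 1 match occurs in 25.7% of 32851 RefSeq promoters of the same length, at least 3 in 1.97% and at least 4 in 0.517%. A match describes letters and not a site in use.

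The libraries held 15545190 to 15728400 counts in the HTR2C-positive medium group and 12843971 to 16031723 in the HTR2C-negative medium group. Macrophage markers were present, with 8 of 8 at 3 counts or more in every library, and summed to 22920 to 25720 CPM (counts scaled to a common library total by TMM factors) with HTR2C-positive medium and 24260 to 26210 CPM with HTR2C-negative medium. Erythroid markers, which would bring in heme and iron genes, were near 0, at 0.132 to 0.544 CPM and 0.265 to 0.470 CPM, with 0 of 8 at 3 counts in every library and Hba-a2, Hbb-bs and Hbb-bt at 0 in every library. Neutrophil markers, 6 of 8 at 3 counts or more in every library, summed to 979 to 1225 CPM and 811 to 1013 CPM, with Ly6g at 0 throughout. Alveolar macrophage markers, 5 of 10 at that level, summed to 132 to 147 CPM and 136 to 137 CPM, with Krt79, Fabp1 and Cidec at 0 throughout. The library N2 was more like P1 (r = 0.980 across genes) than like either library of its own group (r = 0.973 and 0.974). Values without both are therefore given for those of the 10 genes where they bring an adjusted p under 0.05. For the named genes of the pathway lists they are given where all libraries together gave an unadjusted p under 0.05. Leaving both out was chosen after seeing the data. It removes the pair with the highest correlation across the groups, which by itself sets the groups further apart. In that comparison 1107 of 10156 tested genes passed the adjusted edgeR threshold, and no trend-corrected fit was made for it. Counts also varied with the GC content of the gene, with slopes of 0.27, 0.18 and 0.15 log2 units per 10 percentage points in P1 to P3 and of -0.35, -0.04 and -0.22 in N1 to N3. Those slopes separate the groups, so their part in a difference cannot be told apart from the medium by group labels alone, and fold changes after removal of this trend and of a like one with gene length are given with the results as trend-corrected values.

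Measured per length, the 10 genes spanned a wide range of RNA levels, and ferritin stood at the top. Levels are given here in deposited FPKM, the authors' counts scaled by gene length and library total, as mean ± SD with n = 3 in each group. Fth1, the ferritin heavy chain that oxidises iron as it enters the shell, had 4232 ± 253 FPKM with HTR2C-positive medium and 3451 ± 201 with HTR2C-negative medium, and ranked 10 among all genes. Ftl1, the light chain that helps form the iron core, had 627 ± 118 and 413 ± 80.7 FPKM and ranked 90. Mt1 followed at 400 ± 138 and 327 ± 45.5 FPKM, at rank 128. The ferritin genes and Mt1 thus held the highest levels of the 10, while the other metallothionein gene, Mt2, was far lower.

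The transporters were intermediate or low. Slc11a1 (NRAMP1), which moves metal ions out of the phagosome of macrophages, had 37.5 ± 6.90 FPKM with HTR2C-positive medium and 27.2 ± 7.79 with HTR2C-negative medium. Slc11a2 (DMT1), which carries iron out of endosomes into the cytosol, had 19.8 ± 5.29 and 14.5 ± 2.41 FPKM. Tfrc had 3.14 ± 0.719 and 3.08 ± 0.147 FPKM. The exporter was the lowest of the 10, with Slc40a1 at 0.325 ± 0.105 FPKM with HTR2C-positive medium and 0.242 ± 0.163 with HTR2C-negative medium.

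Of the remaining genes, Mt2 had 5.12 ± 0.927 FPKM with HTR2C-positive medium and 3.27 ± 0.521 with HTR2C-negative medium. Ireb2, which encodes iron regulatory protein 2, had 3.75 ± 0.656 and 4.19 ± 0.417 FPKM, and Ncoa4 had 0.883 ± 0.237 and 0.983 ± 0.343 FPKM. Down the order Fth1, Ftl1, Mt1, Slc11a1, Slc11a2, Mt2, Ireb2, Tfrc, Ncoa4 and Slc40a1, each gene was above the next in 6 of 6 libraries, except that Mt2 exceeded Ireb2 in only 2. The ranges over the libraries overlapped for the neighbours Ftl1 and Mt1, Slc11a1 and Slc11a2, Mt2 and Ireb2, and Ireb2 and Tfrc. These levels depend on the length used. The table gives Fth1 3469 bases, against 929 in its lowest-numbered GENCODE M21 transcript, and Slc40a1 9000 bases, against 3370. It gives Ftl1 1340 bases, against 968, and Mt1 1246 bases, against 549, so the order of Ftl1 and Mt1 depends on the length used.

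**Figure D1:**
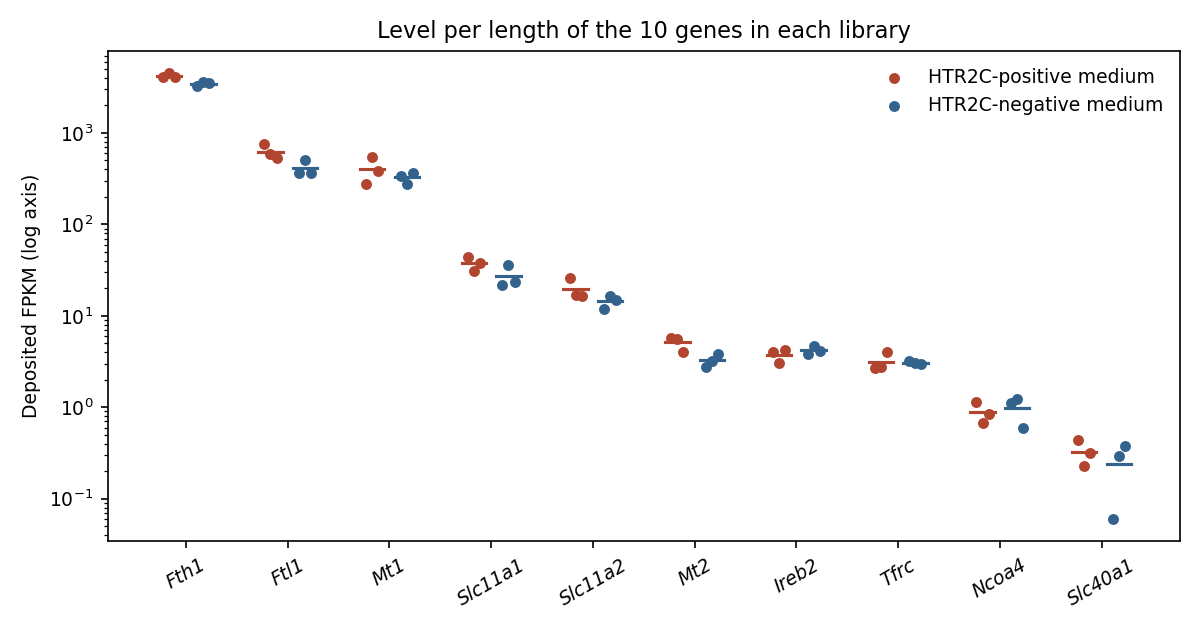
Deposited FPKM (vertical, log axis) of the 10 genes in each of the 6 libraries, with points for libraries and a bar for the group mean. Fth1 stands between 3239 and 4521 FPKM, above the other 9 genes in every library, and Slc40a1 is at 0.436 FPKM or less.

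Between the media, no gene of the 10 passed the threshold of an adjusted p under 0.05. The edgeR quasi-likelihood test, with Benjamini-Hochberg adjustment over 10177 genes, called 0 of the 10 and 0 of all genes (0%), and the lowest adjusted p was 0.186 among the 10 and 0.0616 among all. DESeq2 called 0 of the 8 to which it gave an adjusted p (none for Mt2 or Slc40a1) and 394 of all genes, and limma-voom called 0 and 0. At an unadjusted p under 0.05, 1 of the 10 was higher with HTR2C-positive medium (Ftl1), where 7.90% of all tested genes were, and 0 were lower, where 8.71% were. In 7 of the 10 the log2 fold change was positive, against 52.1% of all tested genes, and the median was 0.22 against 0.02. The groups did not overlap in 1 gene that was higher (Ftl1), against 10.9% of all, and 1 that was lower (Ireb2), against 11.5%. After removal of the trend with GC and length, the median of the 10 was 0.05, against 0.0048 for all tested genes. The 10 genes were chosen with earlier results of these data known, so these shares and medians are descriptions only.

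**Figure D2:**
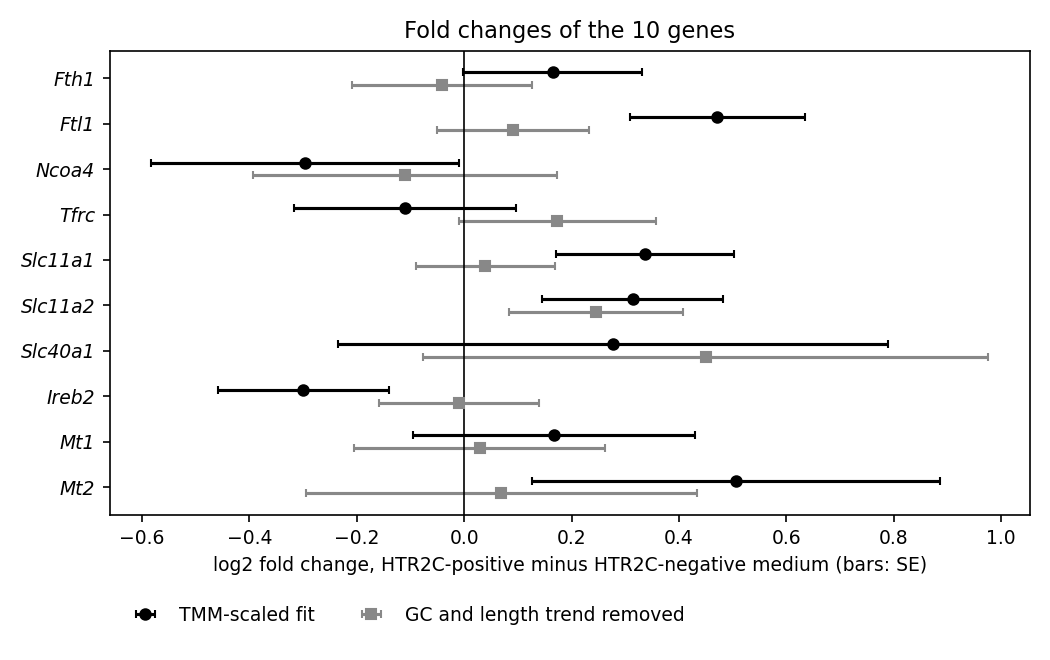
Log2 fold change (horizontal, HTR2C-positive minus HTR2C-negative medium, bars ± SE, 3 libraries a group) of the 10 genes in the TMM-scaled edgeR fit (black circles) and with each library's GC and length trend removed (grey squares). Ftl1 lies at 0.47 in the first fit and at 0.09 in the second.

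Ftl1 (ENSMUSG00000050708, chr7:45107368-45109308, minus strand) had the smallest p of the 10. Its TMM-scaled CPM, the unit of per-library levels from here on, was 903, 818 and 671 in P1 to P3, against 553, 640 and 532 in N1 to N3. Every library with HTR2C-positive medium was above every library with HTR2C-negative medium, although P3 and N2 were close. The means were 797 ± 117 and 575 ± 57.3 CPM (SD, n = 3 each). The log2 fold change was 0.47 (SE 0.16) or 1.39-fold with a 95% interval of 1.09 to 1.77, with an edgeR adjusted p of 0.186 and an unadjusted one under 0.05. Since these are bulk libraries, a different share of cells that carry an RNA and a different amount of it per cell cannot be told apart.

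The trend-corrected Ftl1 difference was 0.09 (SE 0.14, edgeR adjusted p = 0.873), and the gene's GC content was 58.1% against a median of 49.4% for tested genes. Without N3 the log2 fold change was 0.43 and no longer under an unadjusted p of 0.05 (edgeR adjusted p = 0.503). Without both N2 and P1 it was 0.47 with an edgeR adjusted p of 0.0143, in a comparison of 2 libraries with 2. Reads of Ftl1 can also align to its processed copies: the row Ftl1-ps1 held 142 to 185 counts with HTR2C-positive medium and 78 to 126 with HTR2C-negative medium. That is 1.17 to 1.37% of the Ftl1 counts in the first group and 1.20 to 1.35% in the second, so the copy followed the gene in near-constant ratio.

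Fth1 (ENSMUSG00000024661, chr19:9957962-9962462, plus strand) had 12471, 16314 and 13434 CPM in P1 to P3, against 12750, 11925 and 12982 CPM in N1 to N3. P2 stood above all others, and the lowest library with HTR2C-positive medium lay inside the range of the other group. The means were 14073 ± 2000 and 12553 ± 556 CPM. This gave a log2 fold change of 0.17 (SE 0.17, interval 0.873 to 1.44-fold, edgeR adjusted p = 0.652), and of 0.04 without P2. The scaling mattered for this gene. As a plain share of all counts, Fth1 took 1.41, 1.57 and 1.43% in P1 to P3 and 1.12, 1.26 and 1.21% in N1 to N3, without overlap. Scaling by total counts gave 0.29, past an unadjusted p of 0.05 (edgeR adjusted p = 0.298), but that scaling also moved the median of all tested genes to 0.16, against 0.02 with TMM factors. Relative to the median of all genes the Fth1 difference was 0.14 under both scalings, and the trend-corrected difference was -0.04.

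The balance of the ferritin chains was also set out, since heavy and light subunits build the shell together. The Fth1 to Ftl1 ratio per length was 5.33, 7.71 and 7.73 in P1 to P3, against 8.91, 7.19 and 9.42 in N1 to N3. The ranges overlapped, through N2. The ratios rest on the table's lengths of 3469 bases for Fth1 and 1340 for Ftl1. They would be higher with the GENCODE M21 lengths of 929 and 968 bases, whereas the difference between the groups would not change. The log2 ratio differed by -0.31 (2.77 ± 0.308 and 3.08 ± 0.205, SD, n = 3 each), with a two-sided exact permutation p of 0.3, where 3 libraries against 3 cannot give less than 0.1, and by -0.13 without P1. The 2 chains summed to 13374, 17132 and 14105 CPM with HTR2C-positive medium and to 13303, 12565 and 13515 CPM with HTR2C-negative medium (log2 difference 0.17, exact permutation p = 0.2), with a log2 difference of 0.07 without P2.

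Ncoa4 (ENSMUSG00000056234, chr14:31881822-31901812, plus strand), the receptor that takes ferritin to the lysosome, had 9.47, 6.55 and 7.37 CPM in P1 to P3, against 11.9, 10.9 and 5.98 CPM in N1 to N3. N3 was the lowest of all 6 libraries and N1 the highest, so the groups overlapped fully. The log2 fold change was -0.30 (SE 0.29, interval 0.530 to 1.25-fold, edgeR adjusted p = 0.635) and -0.11 when trend-corrected. It was -0.12 without N1 and -0.54 without N3.

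On the uptake side, Tfrc (ENSMUSG00000022797, chr16:32427738-32451612, plus strand) had 14.8, 17.7 and 23.1 CPM in P1 to P3, against 22.7, 17.8 and 19.6 CPM in N1 to N3. P1 was the lowest library and P3 the highest, both with HTR2C-positive medium. The log2 fold change was -0.11 (SE 0.21, interval 0.679 to 1.26-fold, edgeR adjusted p = 0.824). Its sign was not stable, with 0.17 when trend-corrected, 0.03 under total-count scaling and 0.05 without P1.

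Slc11a1 (ENSMUSG00000026177, chr1:74414354-74425221, plus strand) had 146, 118 and 131 CPM in P1 to P3, against 91.5, 126 and 94.6 CPM in N1 to N3. N2 stood among the libraries with HTR2C-positive medium, and the other libraries of its group lay below all of them. The means were 132 ± 14.0 and 104 ± 19.3 CPM, and the log2 fold change was 0.34 (SE 0.17, interval 0.986 to 1.62-fold, edgeR adjusted p = 0.327). It passed an unadjusted p of 0.05 without N2, at 0.50 (edgeR adjusted p = 0.117), and without P2, at 0.41 (edgeR adjusted p = 0.337). Without both N2 and P1 it was 0.43 with an edgeR adjusted p of 0.0368. The trend-corrected difference was 0.04 (edgeR adjusted p = 0.940), for a gene of 55.1% GC.

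Slc11a2 (ENSMUSG00000023030, chr15:100285779-100322953, minus strand) had 146, 112 and 99.5 CPM in P1 to P3, against 85.5, 99.5 and 103 CPM in N1 to N3. P1 stood highest, and P3 lay among the libraries with HTR2C-negative medium. The means were 119 ± 24.3 and 95.9 ± 9.10 CPM, and the log2 fold change was 0.31 (SE 0.17, interval 0.965 to 1.60-fold, edgeR adjusted p = 0.372). Trend correction left it at 0.25 (edgeR adjusted p = 0.661). Without P3 it was 0.43 and under an unadjusted p of 0.05 (edgeR adjusted p = 0.316), and without P1 it was 0.16 (edgeR adjusted p = 0.657).

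The exporter gene Slc40a1 (ENSMUSG00000025993, chr1:45947228-45965683, minus strand) was detected at 61, 32 and 44 counts in P1 to P3, against 7, 36 and 54 counts in N1 to N3. In CPM these were 3.48, 2.12 and 2.66 against 0.618, 2.47 and 3.63. N1 was far below every other library: its 7 counts have an exact 95% Poisson interval of 0.249 to 1.27 CPM, which does not reach the 1.45 CPM at the lower end of the interval of P2. The other 5 libraries overlapped. The log2 fold change was 0.28 (SE 0.51, interval 0.563 to 2.61-fold, edgeR adjusted p = 0.821), and 0.45 when trend-corrected. Without N1 it was -0.15 and without N3 it was 0.81. Counting intervals cover counting error only.

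Set against each other as import over export, the Tfrc to Slc40a1 ratio per length was 6.20, 12.2 and 12.6 in P1 to P3, against 53.4, 10.5 and 7.87 in N1 to N3. The high value of N1 came with the 7 counts of Slc40a1 there. The ratios rest on the table's lengths of 6185 bases for Tfrc and 9000 for Slc40a1. They would be lower with the GENCODE M21 lengths of 4890 and 3370 bases, with the same difference between the groups. The log2 ratio differed by -0.73 (exact permutation p = 0.6), by 0.12 without N1, and by -0.45 with 1 CPM added to both genes.

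Ireb2 (ENSMUSG00000032293, chr9:54771073-54819814, plus strand), whose protein binds the hairpins printed above, had 33.6, 29.7 and 37.9 CPM in P1 to P3, against 41.0, 41.5 and 42.1 CPM in N1 to N3. Every library with HTR2C-positive medium was below every library with HTR2C-negative medium, and the second group was tight. The means were 33.7 ± 4.09 and 41.5 ± 0.530 CPM, and the log2 fold change was -0.30 (SE 0.16, interval 0.640 to 1.03-fold, edgeR adjusted p = 0.364). The gene's GC content was low, at 39.0%, and the trend-corrected difference was -0.01 (edgeR adjusted p = 0.990).

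Mt1 (ENSMUSG00000031765, chr8:94905710-94906955, plus strand) had 302, 710 and 444 CPM in P1 to P3, against 479, 326 and 492 CPM in N1 to N3. P2 was the highest library and P1 the lowest, so the widest spread was among libraries with HTR2C-positive medium. The means were 485 ± 207 and 432 ± 91.9 CPM, and the log2 fold change was 0.17 (SE 0.26, interval 0.758 to 1.66-fold, edgeR adjusted p = 0.788). Single libraries set the value: it was 0.43 without P1, under an unadjusted p of 0.05 (edgeR adjusted p = 0.282), and -0.21 without P2. Without N2 it was 0.0068, and the trend-corrected value was 0.03.

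Mt2 (ENSMUSG00000031762, chr8:94899292-94900196, plus strand) was far lower, at 52, 52 and 37 counts in P1 to P3, against 21, 26 and 36 counts in N1 to N3. In CPM these were 2.97, 3.44 and 2.23 against 1.86, 1.79 and 2.42, so the groups overlapped through P3 and N3. The means were 2.88 ± 0.606 and 2.02 ± 0.347 CPM, and the log2 fold change was 0.51 (SE 0.38, interval 0.804 to 2.51-fold, edgeR adjusted p = 0.531). Trend-corrected, it was 0.07.

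The metallothionein genes were unequal in every library. The Mt1 to Mt2 ratio per length was 48.0, 97.4 and 93.8 in P1 to P3, against 122, 86.3 and 95.9 in N1 to N3. P1 had the lowest ratio and N1 the highest. The ratios rest on the table's lengths of 1246 bases for Mt1 and 588 for Mt2. They would be higher with the GENCODE M21 lengths of 549 and 511 bases, with the same difference between the groups. The log2 ratio differed by -0.40 (exact permutation p = 0.5), by -0.07 without P1, and by -0.25 with 1 CPM added to both genes. The sum of Mt1 and Mt2 was 305, 713 and 447 CPM with HTR2C-positive medium and 481, 328 and 494 CPM with HTR2C-negative medium (exact permutation p = 1). Its log2 difference was 0.11, with 0.40 without P1 and -0.21 without P2. The other mouse metallothionein genes, Mt3 and Mt4, had 0 counts in every library, which allows up to 0.171 to 0.198 CPM in P1 to P3 and 0.202 to 0.265 CPM in N1 to N3 at a limit of 3 counts. How the counting treated reads that match both Mt1 and Mt2 is not given in the sources used here.

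**Figure D3:**
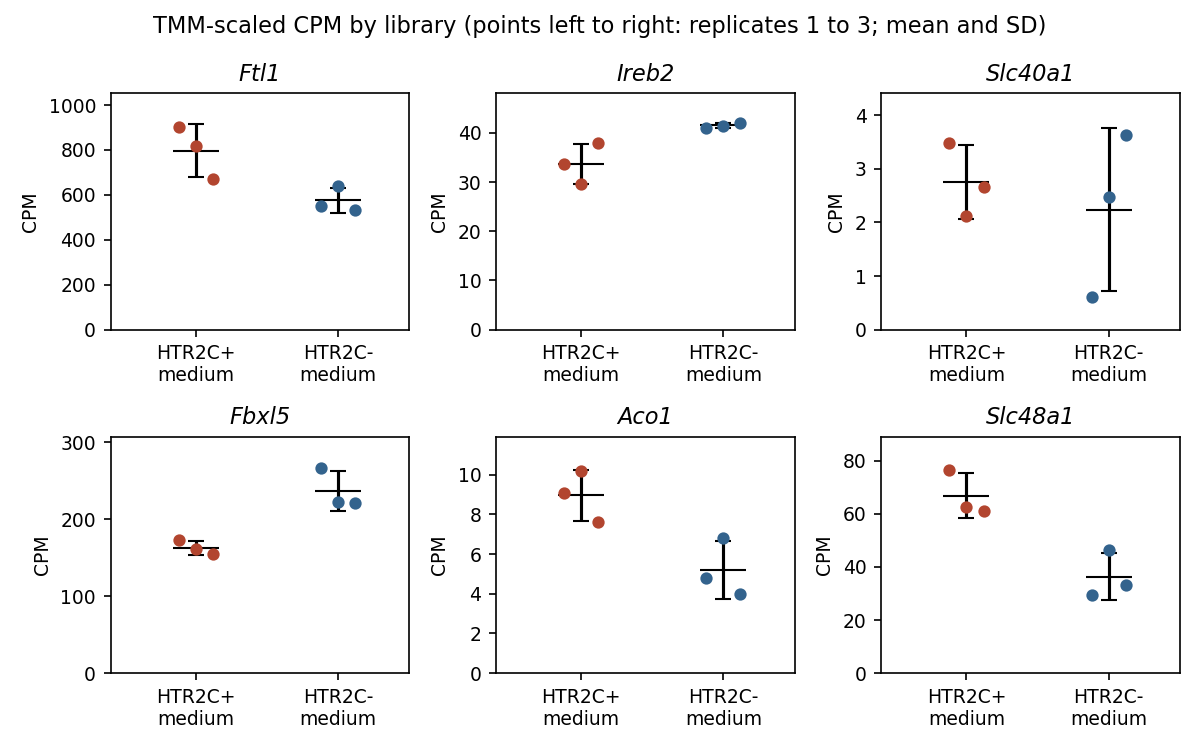
TMM-scaled CPM (vertical) in each library for Ftl1, Ireb2 and Slc40a1 of the 10 genes and for Fbxl5, Aco1 and Slc48a1 of the pathway lists, with mean and SD (n = 3 in each group). The groups do not overlap for Ftl1, Ireb2, Fbxl5, Aco1 or Slc48a1, and 1 library with HTR2C-negative medium stands at 0.618 CPM for Slc40a1.

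Likeness of pattern was measured as the root mean square difference of log2 CPM, each gene centred on its mean over the 6 libraries. For Ftl1, whose own deviation was 0.277, the nearest of 5315 genes that averaged 10 CPM or more were Acot7, Rac2, Rpl37a, Atp5b and Cox6a1, at 0.0539 to 0.0732. Acot7 cleaves acyl-CoA, Rac2 is a GTPase of blood cells, Rpl37a is a ribosomal protein, and Atp5b and Cox6a1 belong to the respiratory chain and ATP synthase. For Mt1, with an own deviation of 0.408, they were Furin, Tnc, Abhd2, Txnrd1 and Med29, at 0.0853 to 0.115. For Mt2, with 0.340, they were Rps28, Vsir, Rps27, Cdkn1a and Gnl1, at 0.0886 to 0.121. No gene was shared between these sets of 5.

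Around the 10 genes, 5 lists covered other genes of iron and metal handling, and no gene of these lists passed the adjusted edgeR threshold. The lists too were chosen with earlier results of these data known. At an unadjusted p under 0.05, Fbxl5, Lcn2, Slc48a1 and Cox17 stayed past the level whichever of the 6 libraries was left out. The other list genes described as past it lost it without at least 1 library. List genes were named mostly for the smallest unadjusted p of their list in these same libraries. Staying past the level is therefore not independent of that choice, and the share of all tested genes that did so is not given here. Over the 6 ways of leaving out a library, the edgeR adjusted p ranged over 0.0687 to 0.574 for Fbxl5, 0.0110 to 0.571 for Lcn2, 0.0229 to 0.564 for Slc48a1 and 0.0146 to 0.572 for Cox17. Without both N2 and P1, the edgeR adjusted p was 0.0018 for Fbxl5, 0.0463 for Aco1 and 0.0177 for Tax1bp1. In that comparison of 2 libraries with 2 it was 8.55e-06 for Lcn2, 3.97e-05 for Slc48a1, 7.11e-05 for Cox17, 0.0338 for Slc30a6 and 0.0241 for Slc31a1. Slc39a14 and Iscu did not pass the adjusted threshold there (edgeR adjusted p = 0.0535 and 0.118). Steap1, Ppox and Slc39a3 were then no longer under an unadjusted p of 0.05 (edgeR adjusted p = 0.377, 0.459 and 0.285). N2 and P1 were left out after seeing the data, and 1107 of 10156 tested genes then passed the adjusted threshold. Among 13 genes of iron sensing and ferritin turnover, 12 were tested, of which 1 was higher and 2 were lower below an unadjusted p of 0.05 (as were 7.90% and 8.71% of all tested genes), with a median log2 fold change of -0.0019, or -0.0059 when trend-corrected. Fbxl5, the iron-sensing adaptor that has iron regulatory proteins degraded, had 173, 161 and 155 CPM in P1 to P3, against 267, 223 and 221 CPM in N1 to N3. All libraries with HTR2C-positive medium were below all of the other group, with a log2 fold change of -0.54 (SE 0.15, edgeR adjusted p = 0.116). The trend-corrected value was -0.29 (edgeR adjusted p = 0.504), and DESeq2 gave an adjusted p of 0.0216.

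Aco1, which encodes iron regulatory protein 1, had 9.07, 10.2 and 7.61 CPM in P1 to P3, against 4.77, 6.80 and 3.96 CPM in N1 to N3. The groups did not overlap, and the log2 fold change was 0.79 (SE 0.28, edgeR adjusted p = 0.190), with 0.65 when trend-corrected and 0.64 without N3, no longer under an unadjusted p of 0.05 (edgeR adjusted p = 0.496). Tax1bp1, an autophagy receptor that acts with NCOA4 in ferritin delivery, had 517, 500 and 449 CPM in P1 to P3, against 716, 590 and 602 CPM in N1 to N3. These groups did not overlap either, with a log2 fold change of -0.38 (edgeR adjusted p = 0.236) that was -0.15 when trend-corrected and no longer under an unadjusted p of 0.05. Of the genes of both iron regulatory proteins, Aco1 was at 0.79 and Ireb2 at -0.30, or at 0.65 and -0.01 when trend-corrected, and neither passed the adjusted threshold. Hif1a, the oxygen-sensing factor, had 272, 422 and 448 CPM, against 499, 439 and 463 CPM, with overlap (log2 fold change -0.30, edgeR adjusted p = 0.443), with -0.05 when trend-corrected and -0.08 without P1.

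Of 20 genes of iron transport and capture, 19 were found in the table under the symbol searched and 11 were tested. Of those tested, 2 were higher and 1 was lower below an unadjusted p of 0.05, as were 7.90% and 8.71% of all tested genes. The median was 0.0059, or 0.08 when trend-corrected. Lcn2, the lipocalin that binds bacterial iron carriers, had 123, 228 and 188 CPM in P1 to P3, against 80.7, 91.6 and 115 CPM in N1 to N3. P1 was close to N3 and the others stood apart, with a log2 fold change of 0.90 (SE 0.22, edgeR adjusted p = 0.0889). The trend-corrected value was 0.73 (edgeR adjusted p = 0.347). Without P1 it was 1.13 with an edgeR adjusted p of 0.0110, without N1 it was 0.79 with 0.571, and DESeq2 gave an adjusted p of 0.00558. Beside it, the 6 tested neutrophil markers all had a positive log2 fold change, with a median of 0.45, or 0.27 when trend-corrected. Of these, 2 were higher below an unadjusted p of 0.05, where 7.90% of all tested genes were. They were Camp at 0.53 (edgeR adjusted p = 0.192) and S100a9 at 0.36 (edgeR adjusted p = 0.248). Trend-corrected, they were at 0.24 and 0.42, neither then under that level. The part of the neutrophil markers in the Lcn2 values was not tested.

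Slc39a14 (ZIP14), a zinc and iron importer, had 57.7, 72.3 and 54.4 CPM in P1 to P3, against 43.3, 45.5 and 49.0 CPM in N1 to N3 (log2 fold change 0.42, trend-corrected 0.40, edgeR adjusted p = 0.218). Steap1, of the metalloreductase family, had 1.92 to 2.23 CPM, against 3.16 to 4.53 CPM (log2 fold change -0.93, trend-corrected -0.78, edgeR adjusted p = 0.207). Neither gene's groups overlapped. Hamp, the hormone that closes ferroportin, was at 1, 1 and 4 counts in P1 to P3 and at 0, 5 and 17 counts in N1 to N3 and was not tested. Pcbp1, a chaperone that brings iron to ferritin, had 46.0, 67.8 and 77.5 CPM, against 61.7, 61.9 and 53.2 CPM, and overlapped between the groups (log2 fold change 0.11, edgeR adjusted p = 0.802), with -0.22 when trend-corrected and -0.04 without P3.

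Heme genes, 23 in the list and 19 tested, included 2 that were higher and 0 that were lower below an unadjusted p of 0.05. Of all tested genes, 7.90% were higher and 8.71% lower at that level. The median of the heme genes was 0.07, or -0.18 when trend-corrected. Slc48a1 (HRG1), which carries heme out of the phagolysosome, had 76.6, 62.7 and 61.1 CPM in P1 to P3, against 29.4, 46.4 and 33.2 CPM in N1 to N3. Every library of the first group was above every library of the second, with a log2 fold change of 0.88 (SE 0.19, edgeR adjusted p = 0.0805). The trend-corrected value was 0.58 (edgeR adjusted p = 0.259). The edgeR adjusted p was 0.0229 without N2 and 0.0396 without P1, and DESeq2 gave an adjusted p of 0.00344.

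Hmox1, the heme oxygenase that frees iron from heme, had 282, 282 and 243 CPM in P1 to P3, against 219, 291 and 236 CPM in N1 to N3. The groups overlapped, and the log2 fold change was 0.11 (SE 0.16, edgeR adjusted p = 0.756), or -0.0057 when trend-corrected. Ppox, an enzyme of heme synthesis, had 3.71, 1.98 and 1.99 CPM, against 1.24, 1.58 and 0.806 CPM (log2 fold change 1.08, edgeR adjusted p = 0.275). Its groups did not overlap, at low counts, but it was no longer under an unadjusted p of 0.05 when trend-corrected, at 0.68, or without P1, at 0.74. Hmox2, the constitutive heme oxygenase, had 129, 151 and 140 CPM, against 167, 155 and 171 CPM, also without overlap (log2 fold change -0.23, trend-corrected -0.18, edgeR adjusted p = 0.427). Abcg2, a porphyrin exporter, was low and overlapped (log2 fold change -0.69, trend-corrected -0.39, edgeR adjusted p = 0.485).

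Among 30 genes of mitochondrial iron and iron-sulphur clusters, 27 were tested, and 1 was higher and 0 were lower below an unadjusted p of 0.05. Of all tested genes, 7.90% were higher and 8.71% lower at that level. The median of the list was 0.03, or -0.04 when trend-corrected. Iscu, the scaffold on which clusters are built, had 84.5, 92.0 and 94.0 CPM in P1 to P3, against 86.6, 63.3 and 57.2 CPM in N1 to N3. N1 lay inside the range of the other group, and the log2 fold change was 0.39 (edgeR adjusted p = 0.281), or 0.24 and no longer under an unadjusted p of 0.05 when trend-corrected. Slc25a28 (mitoferrin 2), which brings iron into mitochondria, had 5.47, 5.95 and 12.0 CPM, against 5.57, 3.85 and 5.04 CPM, with P3 apart from the rest (log2 fold change 0.70, edgeR adjusted p = 0.314). It was 0.26 without P3 and 0.16 when trend-corrected. The cluster assembly genes Isca2 at -0.21 (trend-corrected -0.11, edgeR adjusted p = 0.478) and Mms19 at 0.39 (trend-corrected 0.33, edgeR adjusted p = 0.495) had opposite signs.

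Among 32 zinc and copper genes, 22 were tested, and 1 was higher and 3 were lower below an unadjusted p of 0.05. Of all tested genes, 7.90% were higher and 8.71% lower at that level. The median of the list was 0.03, or -0.04 when trend-corrected. With the trend removed, 0 were higher and 1 was lower below an unadjusted p of 0.05, as were 3.77% and 5.92% of all tested genes. Cox17, the chaperone that brings copper to cytochrome c oxidase, had 35.0, 25.9 and 19.2 CPM in P1 to P3, against 56.0, 47.5 and 42.1 CPM in N1 to N3. The groups did not overlap, with a log2 fold change of -0.86 (SE 0.21, edgeR adjusted p = 0.0942) that was -0.75 (edgeR adjusted p = 0.290) when trend-corrected. It was -1.09 with an edgeR adjusted p of 0.0146 without P1, and -0.67 with 0.230 without P3, and DESeq2 gave an adjusted p of 0.0100. The copper importer Slc31a1 had 501, 403 and 459 CPM, against 596, 551 and 580 CPM (log2 fold change -0.34, edgeR adjusted p = 0.274), with -0.14 when trend-corrected.

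The zinc transporters did not share a direction: Slc39a3, an importer, was at 1.05 (edgeR adjusted p = 0.194) and Slc30a6, which fills the secretory pathway, at -0.40 (edgeR adjusted p = 0.235). When trend-corrected they were at 0.54 and -0.20, and neither was under an unadjusted p of 0.05, as neither was without P1 (Slc39a3, 0.69) or without P3 (Slc30a6, -0.27). The regulator of the metallothionein genes, Mtf1, had 9.92, 9.46 and 9.79 CPM in P1 to P3, against 6.45, 8.93 and 8.60 CPM in N1 to N3. Its groups did not overlap, with a log2 fold change of 0.28 (SE 0.23, trend-corrected 0.25, edgeR adjusted p = 0.571). Slc30a1, the zinc exporter that is another MTF1 target, had 8.33, 11.9 and 10.03 CPM, against 9.10, 7.76 and 11.5 CPM, and overlapped (log2 fold change 0.09, trend-corrected 0.19, edgeR adjusted p = 0.880), with -0.03 without N2.

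**Figure D4:**
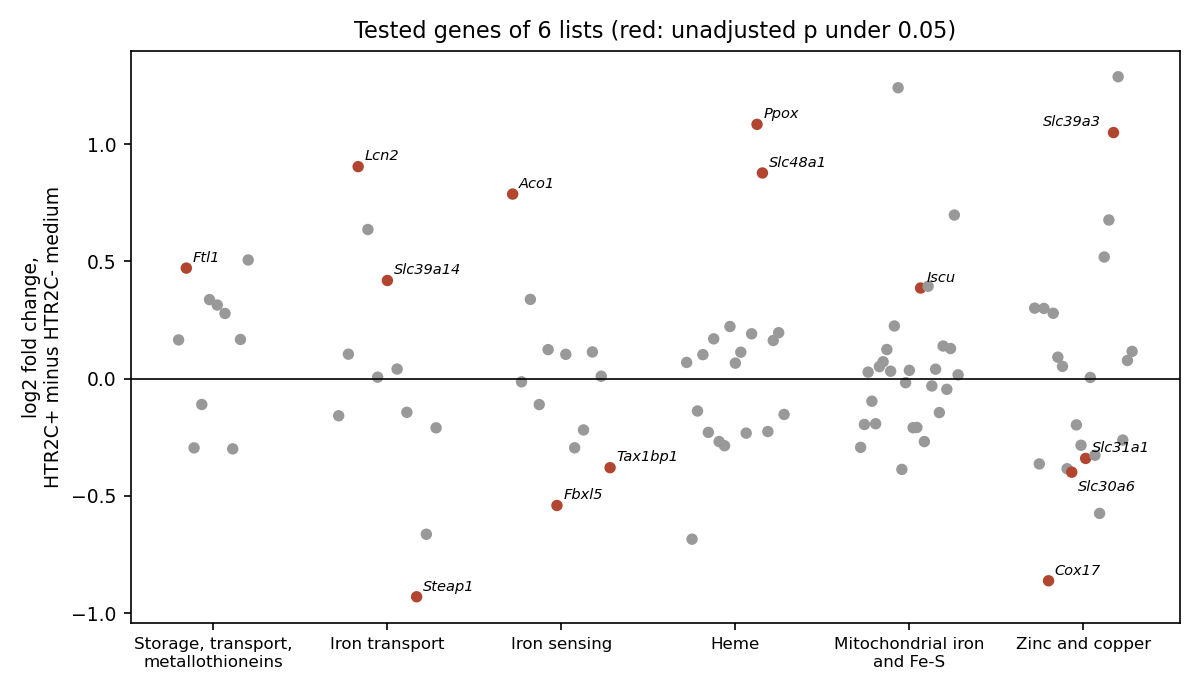
Log2 fold change (vertical, HTR2C-positive minus HTR2C-negative medium) of each tested gene of the 10 and of the 5 lists around them, a point for each gene, with names and red points where the unadjusted edgeR p was under 0.05. Points lie on both sides of 0 in each list, and 1 of the 10 genes is red.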

How the data were processed

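Messenger RNA of 6 samples was measured by RNA-seq. Per the labels' protocols, Trizol was used for extraction and a VAHTS Universal V6 kit for the libraries. Per the submitters' processing notes, the tools were HISAT2, fastp, StringTie and edgeR on the build GRCm39. The sources used here give no counting settings or use of strand, so reads of overlapping or antisense genes cannot be told apart. The deposited counts are whole read counts per gene. The deposited FPKM values equal count over gene length and library total to a relative difference of 3.8e-07.

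Counts were tested with edgeR 4.0.16 (R 4.3.3; filterByExpr, TMM factors, robust quasi-likelihood test, Benjamini-Hochberg adjustment over all tested genes), tested on simulated data first. DESeq2 1.42.0, limma-voom (limma 3.58.1), other scalings and filters, a replicate block, removal of each library's GC and length trend (natural splines of 5 degrees of freedom) and leaving out libraries were alternatives. Ratios and sums were compared by two-sided exact permutation tests. The genes and lists were chosen with earlier results of these data known. The text names all 10 genes, the 4 of each list with the smallest unadjusted p, direct partners, and the 5 most alike in pattern. Tf was not analysed here. No libraries agreed within sampling noise (smallest chi-square 8.56 per degree of freedom).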

Additional observations from a re-analysis of the deposited data

How the results depend on the processing

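For the 10 genes, 160 values under 16 alternatives each gave 140 with the same direction and side of an unadjusted p under 0.05, 8 newly past it, 3 no longer past it and 9 of the other sign. Under those settings that turned a sign, Tfrc was at 0.032 with total counts alone, 0.17 with the GC and length trend removed, 0.16 with that and the replicate block, and 0.047 without P1, in a range of -0.29 to 0.047 with a library left out. Fth1 was at -0.042 with the trend removed and -0.053 with the block added. Mt1 was at -0.020 with trend and block, and ranged over -0.21 (without P2) to 0.43 with a library left out. Slc40a1 ranged over -0.15 (without N1) to 0.81. The cause was not tested. Of the 10, 1 was higher in the main test, 3 with total counts alone, 2 with no count filter, 0 with the trend removed, 0 with trend and replicate block, 0 to 2 with a library left out, and 2 without both N2 and P1, a choice made after seeing the data. Of all tested genes, 7.90% were higher in the main test, 11.3% with total counts alone and 7.79% with no count filter. The share was 3.77% with the trend removed, 2.47% with trend and block, 3.75 to 10.3% with a library left out, and 11.2% without both N2 and P1.

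Over all genes, 0 passed the adjusted threshold in the main test, 422 with no count filter, 394 by DESeq2, 0 to 206 with a library left out (206 without N2, 186 without P1) and 1107 without both N2 and P1. The samples share numbers, and the sources used here do not say what a number marks. Same-numbered samples did not deviate together (r = -0.152, -0.231 and 0.053). Those correlations cannot settle whether the samples were paired, and they were treated as unpaired. With the replicate block 0 genes passed and 1 of the 10 was higher at an unadjusted p under 0.05, where 5.44% of all tested genes were. Trend removal also left 384 higher and 602 lower genes at an unadjusted p under 0.05. Slc40a1 and Mt2 rest on 7 to 61 counts a library, so their counting error is wide.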

Other observations

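Some secreted proteins act on iron or heme outside the cell, and 3 of their genes from the lists were set out after their values were seen. Cp, the ceruloplasmin that oxidises exported iron, had 577, 587 and 641 CPM with HTR2C-positive medium and 680, 699 and 635 CPM with HTR2C-negative medium, so the groups overlapped between P3 and N3. Hp, the haptoglobin that binds free hemoglobin, had 211, 285 and 213 CPM, against 213, 191 and 217 CPM, and overlapped. Ltf, the lactoferrin of neutrophil granules, had 4.16, 4.36 and 2.90 CPM, against 1.15, 3.09 and 3.02 CPM, with N1 the lowest and the groups overlapping.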
